A study of Mus musculus with 12 samples.

Results

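The immediate early transcription factors are genes that growing cells switch on within minutes of a growth factor or cytokine signal, without making new protein first. The 10 genes described here are Fos, Fosb, Jun, Junb, Jund, Egr1, Egr2, Nr4a1, Nr4a2 and Atf3. They were chosen by name, as the array rows annotated with 1 of these symbols. All 10 were measured, on 11 rows of the array, and all 10 were among the 16860 genes tested, out of 22180 genes with a row of their own. Jund had 2 rows, and the one with the higher mean over the arrays was used.

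RNA came from mouse bone marrow cells enriched for Kit, from Tet2fl/fl;CreER animals, that had been infected with a MigR1 retrovirus carrying the leukaemia fusion AML1-ETO and GFP. TET2 is a dioxygenase acting on methylated cytosines, and CreER is a recombinase that a tamoxifen metabolite switches on. The cells went through 3 platings in methylcellulose and were then kept in suspension with SCF, IL-3 and IL-6, the latter 2 at 10 ng/ml each. The Tet2-/- groups had received 4-hydroxytamoxifen (4-OHT) at 200 nM and the Tet2fl/fl groups ethanol, in both cases for 2 passages (4 days). Cultures were then split every 2 days, and cells were taken at passages 2 and 10. Each of the 4 groups has 3 arrays. All 4 groups carry the floxed alleles, CreER and AML1-ETO, so the effects of 4-OHT or of active Cre cannot be told apart from those of Tet2 loss. Sorted cells were positive for GFP and CD16/32 and negative for CD11b and Gr1, and 100 ng of RNA was labelled per array. The labels give neither the driver of CreER nor the animals' age, nor do they state if the 3 replicates of a group came from different cultures. The p-values therefore reflect only how these 12 samples vary, which may be technical.

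These genes fall into families that bind DNA in different ways. FOS proteins (Fos, Fosb) pair with JUN proteins (Jun, Junb, Jund) to form the dimer AP-1, and ATF3 is a related leucine zipper protein that responds to stress and often represses. EGR1 and EGR2 are zinc finger proteins that act downstream of the ERK kinases, and in blood progenitors they have been tied to the monocyte branch of myeloid growth. NR4A1 and NR4A2 are orphan nuclear receptors, active without a known natural ligand, and loss of Nr4a1 together with its relative Nr4a3 leads to myeloid leukaemia in mice. In culture medium with SCF and IL-3, signalling through KIT and the IL-3 receptor runs through these same kinases.

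Nr4a1 was the gene of the 10 that differed by genotype, so the DNA just upstream of the NR4A start sites is shown first, with Fos beside it as the best known gene of the class. Each sequence is the 250 bases before the RefSeq transcript start of assembly GRCm38.p6, written 5′ to 3′ on the gene's strand. Capitals mark the letters TGACG on either strand (CGTCA when read on the printed strand), which are the core of the site for CREB, a factor that cyclic AMP and growth signals activate. Nr4a1 lies at chr15:101266596-101266845 on the plus strand, Nr4a2 at chr2:57124004-57124253 on the minus strand, Nr4a3 at chr4:48045055-48045304 on the plus strand and Fos at chr12:85473640-85473889 on the plus strand.
Nr4a1: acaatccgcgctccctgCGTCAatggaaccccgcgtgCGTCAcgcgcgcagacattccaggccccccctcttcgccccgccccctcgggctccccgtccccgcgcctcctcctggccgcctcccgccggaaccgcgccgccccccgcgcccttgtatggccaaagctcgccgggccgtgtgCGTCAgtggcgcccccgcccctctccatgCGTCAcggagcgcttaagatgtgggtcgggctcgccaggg
Nr4a2: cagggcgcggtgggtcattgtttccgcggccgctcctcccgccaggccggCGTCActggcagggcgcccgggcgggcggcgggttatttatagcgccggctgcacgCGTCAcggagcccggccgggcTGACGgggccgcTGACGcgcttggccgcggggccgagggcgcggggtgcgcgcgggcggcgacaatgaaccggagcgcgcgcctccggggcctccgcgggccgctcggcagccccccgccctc
Nr4a3: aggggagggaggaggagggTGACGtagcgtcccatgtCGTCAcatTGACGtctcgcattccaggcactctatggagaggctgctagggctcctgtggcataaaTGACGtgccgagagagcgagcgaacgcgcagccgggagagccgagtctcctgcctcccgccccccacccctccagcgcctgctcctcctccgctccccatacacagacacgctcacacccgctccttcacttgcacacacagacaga
Fos: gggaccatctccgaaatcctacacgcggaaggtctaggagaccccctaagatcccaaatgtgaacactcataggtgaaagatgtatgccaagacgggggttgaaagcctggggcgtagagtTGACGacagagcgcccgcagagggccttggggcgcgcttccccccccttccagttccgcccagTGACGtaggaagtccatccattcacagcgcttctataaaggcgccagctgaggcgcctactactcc
Nr4a1, Nr4a2 and Nr4a3 each held 4 matches to TGACG in this window and Fos held 2. Of 32851 such windows over all genes, 5836 (17.8%) held at least 1 match, 3.9% held at least 2 and 0.137% (45 windows) held at least 4. Nr4a3, the third gene of its family, is no member of the group of 10 and is shown for comparison. These letters were chosen for display after the windows had been seen, and a match is a description of the sequence, not a measured binding site. The table of start sites held 9 of the 10 members, with 13 start sites in all, and Egr1 was not among them. Fosb, Junb and Atf3 each held 1 match, Jun and Jund held 0, and of the 5 start sites of Egr2, 2 held 0 and 3 held 2. The complete CREB site TGACGTCA, which contains TGACG, was found on either strand in 1.55% of all windows, the AP-1 site TGANTCA in 6.75% and the EGR site GCGNGGGCG in 4.7%. None of the printed windows held either of the first 2. The EGR letters had 1 match in each of the windows of Nr4a1, Nr4a2 and Fosb, and the CArG box of serum response factor, found in 1.47% of all windows, occurred upstream of Egr2.

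Values are log2 RMA values as deposited, so a difference of 1 is a 2-fold change. RMA corrects background, makes the arrays alike in their distribution and summarises the probes of a transcript. Medians of the 12 arrays ranged from 5.57 to 5.68, and arrays of 1 group correlated with each other at 0.984 to 0.991. The row of Tet2 covers the whole gene and does not check the deletion. In Tet2-/- minus Tet2fl/fl cells it gave -0.03 (adjusted p = 0.952) and -0.05 (adjusted p = 0.921) for passages 2 and 10. Of the 15 markers of the sort gate and of immature myeloid cells, all 15 were measured. The mean over the 12 arrays was 10.90 for Fcgr3 (CD16), 12.07 for Cd34 and 12.03 for Mpo. It was 8.12 for Itgam (CD11b) and 6.03 for Ly6g (part of Gr1). A mean over all arrays does not show if a marker differed between the groups, so these means do not check the gate group by group. Compared by genotype with limma, 3 of the 15 markers had an unadjusted p under 0.05 at passage 2, against 9.95% of all genes. Of these, 2 were higher and 1 was lower in the Tet2-/- group. For passage 10 there were 2, 1 higher and 1 lower, against 10.6%. Adjusted p was under 0.05 for 0 of the 15 at either passage. The gate was thus not shown to be equal across the groups. Signals of different genes come from different probes, so the levels of one gene are compared only across the arrays and not with another gene.

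**Figure D1:**
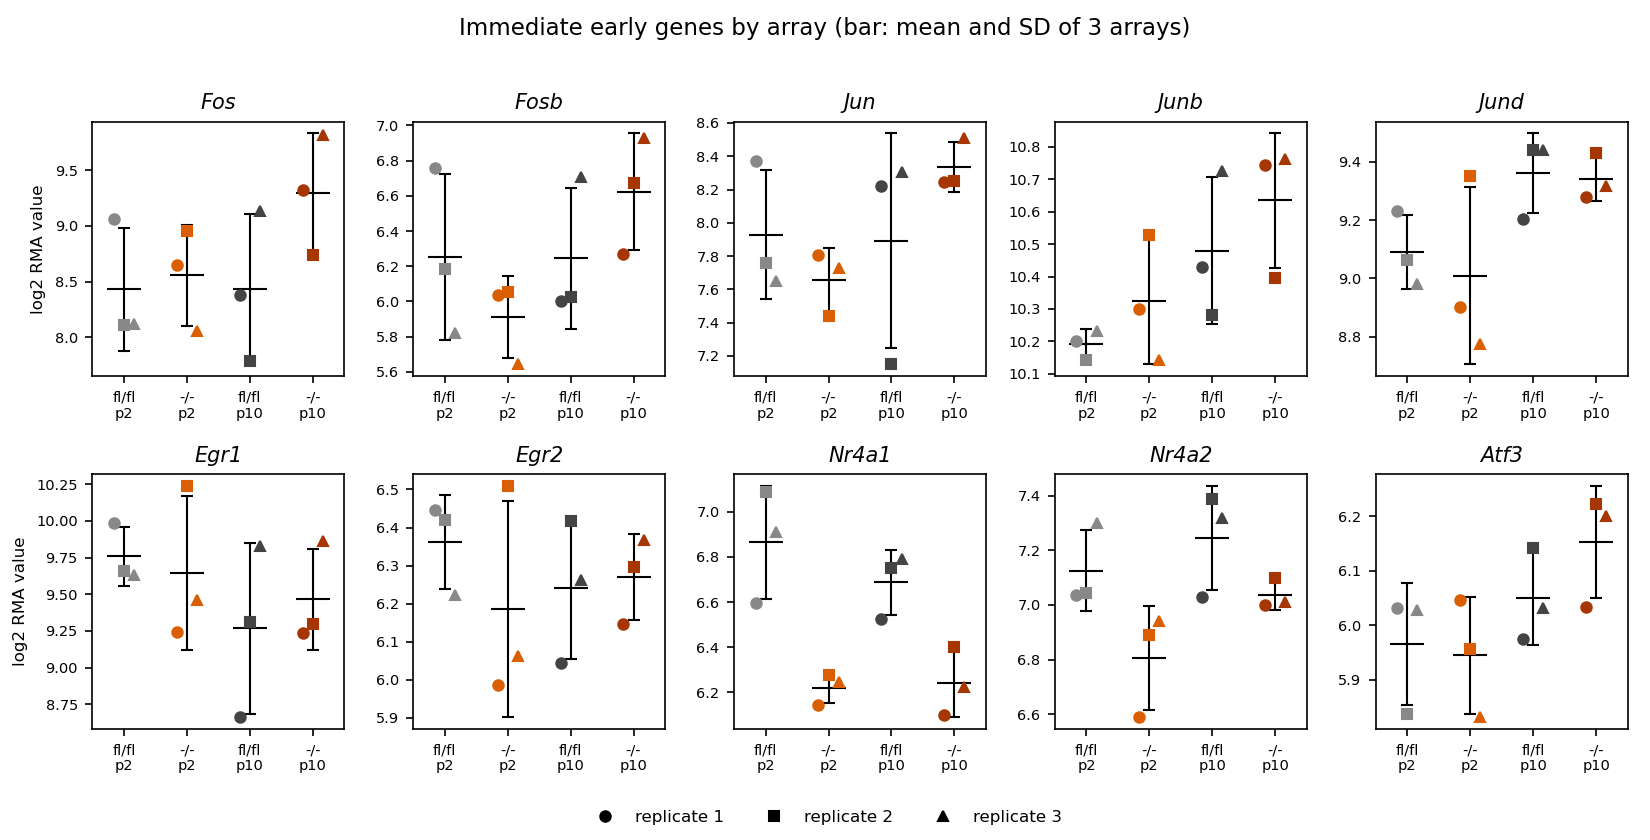
Log2 RMA value (vertical axis, a separate range for each gene) of each of the 10 immediate early genes on each of the 12 arrays, by genotype and passage; the horizontal bar is the mean and the whiskers the SD of 3 arrays, and the marker shape gives the replicate number. Nr4a1 is the gene whose 6 Tet2-/- arrays all lie below its 6 Tet2fl/fl arrays, while Fos, Jun and Egr1 vary within groups by more than most genes.

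Nr4a1 was lower in Tet2-/- cells at both passages, and it was the only 1 of the 10 genes that passed the test (limma, Benjamini-Hochberg adjusted p under 0.05 over all 16860 genes) in the average of both genotype comparisons. At passage 2 it read 6.59, 7.09 and 6.91 in Tet2fl/fl cells and 6.14, 6.28 and 6.24 in Tet2-/- cells, for replicates 1 to 3. At passage 10 the Tet2fl/fl values were 6.52, 6.75 and 6.79 and the Tet2-/- values 6.10, 6.40 and 6.22. The highest Tet2-/- array, 6.40, was thus below the lowest Tet2fl/fl array, 6.52, a separation in this direction seen in 1.13% of all genes. Averaged over the passages the difference was -0.54 ± 0.09 (SE from limma, 6 arrays against 6), a 1.46-fold lower level (adjusted p = 0.0157). Such a call was made for 1.72% of all genes in this average, and 1.06% of genes were called lower. Nr4a1 and Nr4a2 had an unadjusted p under 0.05 there, as did 16.1% of all genes.

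Taken separately, passage 2 gave Nr4a1 a difference of -0.64 ± 0.13 (1.56-fold lower, adjusted p = 0.136). Passage 10 gave it -0.45 ± 0.13 (1.36-fold lower, adjusted p = 0.232). With the replicate number as a block, which removes what arrays of the same number share, both passed, with adjusted p = 0.0302 and 0.0394. The block called 0.409% of all genes at passage 2 and 1.31% at passage 10. All 3 same-numbered pairs were lower at passage 2, by between 0.45 and 0.81, and all 3 at passage 10, by between 0.35 and 0.57. The call on the average was lost without replicate 1 of the Tet2-/- group at passage 2 (-0.53, adjusted p = 0.0529), and when number 2 or number 3 was left out of all 4 groups (-0.53 and -0.51, adjusted p = 0.161 and 0.260). Over its 25 alternatives the average stayed between -0.61 and -0.49 and passed in 22, with adjusted p from 0.00258 to 0.260.

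Nr4a2 ran in the same direction with a smaller difference that did not pass. At passage 2 it read 7.04, 7.04 and 7.30 in Tet2fl/fl cells and 6.59, 6.89 and 6.94 in Tet2-/- cells, and these groups did not overlap. At passage 10 the values were 7.03, 7.39 and 7.32 in Tet2fl/fl cells and 7.0, 7.10 and 7.01 in Tet2-/- cells, where the groups overlapped. Each of the 6 same-numbered pairs had the lower value in Tet2-/- cells. The average difference was -0.26 ± 0.09 (SE, adjusted p = 0.153), or adjusted p = 0.0524 with the replicate block. Passage 2 alone gave -0.32 ± 0.12 (adjusted p = 0.421) and passage 10 alone -0.21 (adjusted p = 0.609).

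Nr4a3, the third receptor of the family, did not pass. With the replicate block it was called lower in Tet2-/- cells at passage 2 and in the average of both passages. Its Tet2fl/fl values at passage 2 were 5.55, 6.19 and 6.32, and its Tet2-/- values 4.91, 4.88 and 5.23. At passage 10 it read 5.32, 5.60 and 6.28 in Tet2fl/fl cells against 5.36, 5.34 and 5.55 in Tet2-/- cells, which overlapped. The difference was -1.02 ± 0.24 at passage 2 (adjusted p = 0.178, and 0.0418 with the replicate block, the 1 of 25 alternatives in which it passed) and -0.31 ± 0.24 at passage 10 (adjusted p = 0.729). Its average was -0.67 ± 0.17 (adjusted p = 0.0744, and 0.0108 with the block). Over 24 alternatives the average stayed between -0.85 and -0.53 and passed in 5.

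**Figure D2:**
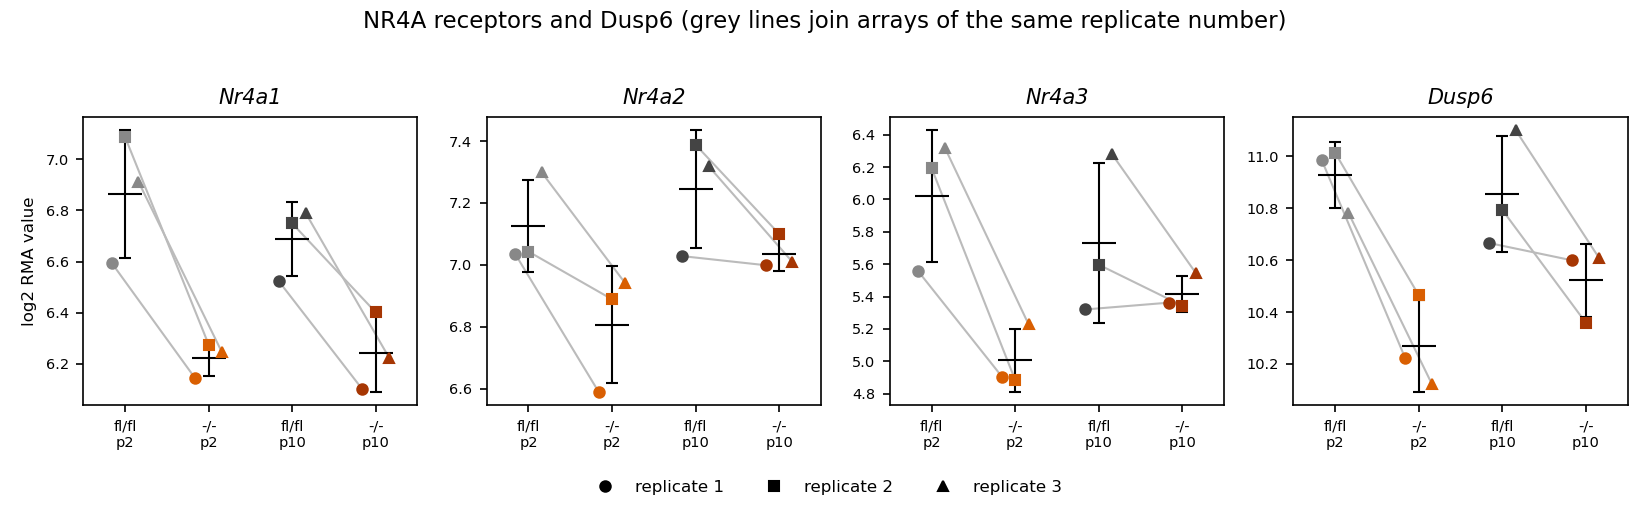
Log2 RMA value (vertical axes, separate ranges) of Nr4a1, Nr4a2, Nr4a3 and the ERK phosphatase gene Dusp6 on each array; grey lines join arrays of the same replicate number across the genotypes at 1 passage, and bars show the mean and SD of 3 arrays. The lines of Nr4a1, Nr4a2 and Dusp6 all run down from Tet2fl/fl to Tet2-/-, and of the Nr4a3 lines only that of replicate 1 at passage 10 does not.

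The FOS genes did not pass in any of the comparisons, and they were among the genes with the widest spread inside a group. Fos, the partner that gives AP-1 much of its strength, read 9.06, 8.11 and 8.12 in Tet2fl/fl cells at passage 2 and 8.65, 8.96 and 8.06 in Tet2-/- cells. At passage 10 it read 8.38, 7.79 and 9.13 in Tet2fl/fl cells and 9.32, 8.74 and 9.81 in Tet2-/- cells. The last group had the highest mean, 9.29 ± 0.537 (SD, n = 3), but its lowest array lay below the highest Tet2fl/fl array of that passage. The genotype difference was 0.13 ± 0.39 at passage 2 (adjusted p = 0.945), and 0.86 ± 0.39 for passage 10 (95% interval 0.01 to 1.71, unadjusted p = 0.0475, adjusted p = 0.463). In all 3 same-numbered pairs of passage 10 Fos was higher in Tet2-/- cells, by 0.69 to 0.96, and with the block adjusted p was 0.327. The SD of Fos within groups was 0.558, larger than that of 98.0% of the genes tested, against a median of 0.145 over all genes.

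Fosb, a close relative of Fos whose shorter splice form lacks the activating end, lay on opposite sides of its control at the 2 passages, without passing at either. At passage 2 it read 6.76, 6.18 and 5.82 in Tet2fl/fl cells and 6.03, 6.06 and 5.64 in Tet2-/- cells. At passage 10 the Tet2fl/fl values were 6.0, 6.02 and 6.71 and the Tet2-/- values 6.27, 6.67 and 6.93. The 3 same-numbered pairs were lower in Tet2-/- cells at passage 2, by between 0.13 and 0.72, and higher at passage 10, by between 0.22 and 0.65. The differences were -0.34 ± 0.26 at passage 2 (adjusted p = 0.710), and 0.38 ± 0.26 for passage 10 (adjusted p = 0.689). Without replicate 1 of Tet2fl/fl at passage 2, its highest array there, the passage 2 difference was -0.09 (adjusted p = 0.916). The change between passages was 0.72 ± 0.37 (95% interval -0.09 to 1.53, unadjusted p = 0.0759, adjusted p = 0.999).

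None of the 3 JUN genes passed for genotype. Jun, the main AP-1 activator of its family, read 8.37, 7.76 and 7.65 in Tet2fl/fl cells at passage 2 and 7.80, 7.44 and 7.73 in Tet2-/- cells. At passage 10 its Tet2fl/fl values of 8.22, 7.15 and 8.31 enclosed most of the Tet2-/- values of 8.25, 8.25 and 8.51. Replicate 2 of that Tet2fl/fl group was the lowest of the 12 arrays. The genotype difference of Jun was -0.27 ± 0.28 at passage 2 (adjusted p = 0.795), and 0.44 ± 0.28 for passage 10 (adjusted p = 0.649). Without replicate 2 of Tet2fl/fl at passage 10 the latter was 0.07 (adjusted p = 0.967). Junb and Jund, which tend to hold Jun-driven growth in check, differed less: Junb by 0.13 and 0.16 at passages 2 and 10 (adjusted p = 0.801 and 0.786), and Jund by -0.08 and -0.02 (adjusted p = 0.888 and 0.984).

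Junb and Jund were higher at passage 10 than at passage 2 in both genotypes, without passing. Junb averaged 10.19 ± 0.0459 and 10.48 ± 0.227 in Tet2fl/fl cells (SD, n = 3) at passages 2 and 10, and 10.32 ± 0.194 and 10.64 ± 0.207 in Tet2-/- cells. Jund averaged 9.09 ± 0.127 and 9.36 ± 0.137 in Tet2fl/fl cells, and 9.01 ± 0.304 and 9.34 ± 0.0778 in Tet2-/- cells. Averaged over the genotypes, the passage difference was 0.30 ± 0.10 for Junb (adjusted p = 0.0836) and 0.30 ± 0.10 for Jund (adjusted p = 0.0821). Both passed when arrays were weighted by their quality (0.34 with adjusted p = 0.0390 for Junb, and 0.32 with 0.0389 for Jund). Jund passed without replicate 2 of the Tet2-/- group at passage 2, which read 9.35 beside 8.90 and 8.77 (passage difference 0.39, adjusted p = 0.0188, and 0.50 with adjusted p = 0.0464 in Tet2-/- cells). The other row of Jund, whose mean signal was 6.69 against 9.20 for the row used, gave a passage difference of -0.13 (adjusted p = 0.288), so the direction depends on the row read.

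Egr1 and Egr2 did not pass for genotype or for passage. Egr1, an early target of ERK signalling, ranged from 8.66 to 10.24 over the 12 arrays. Its lowest array was replicate 1 of the Tet2fl/fl group at passage 10 and its highest was replicate 2 of the Tet2-/- group at passage 2. Means at passage 2 were 9.76 ± 0.199 for the Tet2fl/fl group and 9.65 ± 0.524 for the Tet2-/- group, and at passage 10 they were 9.27 ± 0.584 and 9.47 ± 0.346 (SD, n = 3). The genotype difference was -0.11 ± 0.31 (adjusted p = 0.939) and 0.20 ± 0.31 (adjusted p = 0.900) at the 2 passages. Its 95% intervals ran from -0.79 to 0.56 and from -0.48 to 0.87. Passage 10 minus passage 2 gave -0.49 ± 0.31 with Tet2fl/fl arrays (adjusted p = 0.592) and -0.18 ± 0.31 with Tet2-/- arrays (adjusted p = 0.776).

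Egr2, which shares its DNA site with Egr1, moved within a narrower range of 5.99 to 6.51. Its genotype differences were -0.18 ± 0.14 at passage 2 (adjusted p = 0.728), and 0.03 for passage 10 (adjusted p = 0.976). Egr3, a target of the same pathway outside the group of 10, was lower in Tet2-/- cells, by 0.51 on the log2 scale in the average of both passages, which did not pass as described (adjusted p = 0.0942) and passed with the replicate block (adjusted p = 0.0108). It passed in 5 of 25 alternatives. It read 7.14, 7.41 and 7.41 against 6.30, 7.02 and 6.83 at passage 2, and 6.71, 7.20 and 7.40 against 6.56, 6.70 and 6.80 at passage 10.

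Atf3 was the steadiest of the 10. It lay between 5.83 and 6.22 on all 12 arrays, and its SD within groups, 0.103, was larger than that of only 21.9% of the genes tested. The genotype differences were -0.02 ± 0.09 at passage 2 (adjusted p = 0.963), and 0.10 for passage 10 (adjusted p = 0.786), with 95% intervals of -0.22 to 0.18 and -0.10 to 0.31. The passage difference in Tet2-/- cells was 0.21 (unadjusted p = 0.0447, adjusted p = 0.219).

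Counted over the group of 10, the genotype comparison at passage 2 called 0 genes with limma, against 0.00593% of all genes, and 1 with the replicate block. At an unadjusted p under 0.05 it held 2 (Nr4a1 and Nr4a2), against 9.95% of all genes. At passage 10 it called 0, against 0.225%, and 1 with the block, with 2 at an unadjusted p under 0.05 (Nr4a1 and Fos) against 10.6%. Differences were below 0 for 8 of the 10 genes at passage 2 and for 3 of 10 at passage 10, where 50.8% and 52.6% of all genes were below 0. Their median was -0.14 at passage 2 beside -0.00 for all genes, and 0.13 at passage 10 beside -0.01. Groups were apart, with the Tet2-/- arrays lower, for 2 genes at passage 2, against 8.17% of all genes, and for 1 gene at passage 10, against 9.8%.

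No member passed for passage in either genotype. In Tet2fl/fl cells 0 of 10 were called at passage 10 against passage 2, where limma called 0% of all genes, and 0 had an unadjusted p under 0.05, against 10.2% of all genes. With the block 0 of the 10 were called, beside 0.0415% of all genes. In Tet2-/- cells 0 of 10 were called, against 2.98% of all genes and 7.94% with the block. There 5 had an unadjusted p under 0.05 (Fosb, Jun, Junb, Jund and Atf3), against 21.6%, and 9 of 10 were above 0, against 57.6% of all genes. The 3 largest in Tet2-/- cells were 0.74 ± 0.39 for Fos (adjusted p = 0.298), 0.71 ± 0.26 for Fosb (adjusted p = 0.146) and 0.68 ± 0.28 for Jun (adjusted p = 0.189).

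For Fosb, Jun and Nr4a2 the Tet2-/- arrays of passage 10 all lay above those of passage 2, which held for 15.4% of all genes. In Tet2fl/fl cells these 3 genes differed by -0.01, -0.04 and 0.12 between the passages, and Junb was the 1 gene whose passage 10 arrays all lay higher, against 7.99% of all genes. The test of the difference between the genotypes' passage effects, which is the same as the change of the genotype effect with passage, called 0 of the 10, with 0 at an unadjusted p under 0.05 (3.22% of all genes) and 0% of all genes called. With the block it called 0 of the 10 and 0.00593% of all genes. All 10 estimates of that difference were above 0, from 0.02 to 0.74, beside 48.6% of all genes. The other row of Jund gave -0.04. Junb, Jund, Egr1 and Nr4a2 turned below 0 in at least 1 fit without 1 array or 1 replicate number. Several of the 10 genes correlate with each other, so their signs are not independent counts. The genotype and passage comparisons share groups, so their values are not independent of each other. In the average over genotypes, limma called 0 of the 10 for passage, against 7.77% of all genes, with 3 at an unadjusted p under 0.05 against 26.8%. With the block it called 0 of the 10, against 13.2%.

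**Figure D3:**
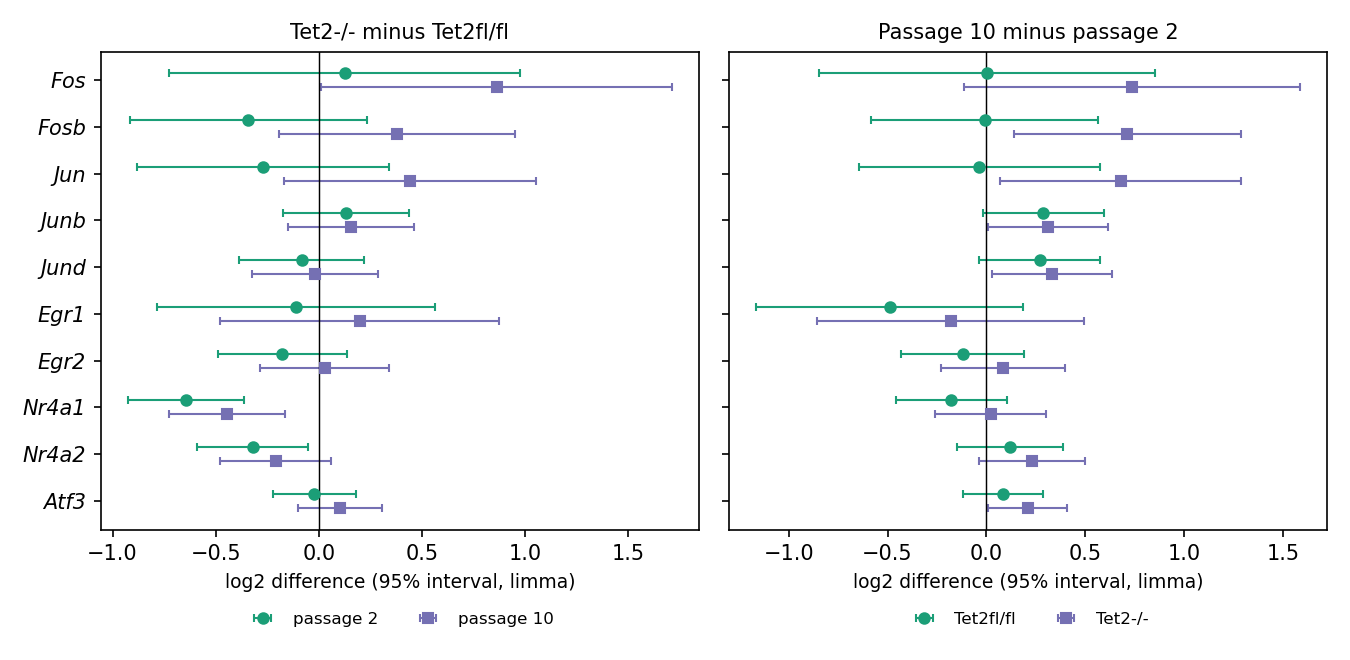
Log2 difference (horizontal axis) with its 95% interval from limma for each of the 10 genes; the left panel shows Tet2-/- minus Tet2fl/fl at passage 2 and passage 10, and the right panel passage 10 minus passage 2 in each genotype, with 3 arrays in each group. The intervals of Nr4a1 lie below 0 at both passages in the left panel, and those of Fos, Jun, Fosb and Egr1 are the widest.

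Arrays that were high for one AP-1 gene were often high for others. Over the 12 arrays Fos and Junb correlated at r = 0.80 (Spearman's rho 0.78), Fos and Fosb at 0.76 (0.80), and Fos and Jun at 0.73 (0.77). Egr1 and Egr2 correlated at 0.72 (0.78), and the NR4A genes at 0.67 (0.78) for Nr4a1 with Nr4a2 and 0.84 (0.74) for Nr4a1 with Nr4a3. Without the 2 arrays farthest from the median of the first gene, r was 0.77 for Fos with Junb, 0.52 for Fos with Jun, 0.56 for Egr1 with Egr2 and 0.80 for Nr4a1 with Nr4a2. These are descriptions of 12 points in 4 groups that share their culture and array processing. Taking each array's deviation from its own group mean, r was 0.84 for Fos with Junb, 0.77 for Fos with Fosb, 0.80 for Egr1 with Egr2 and 0.51 for Nr4a1 with Nr4a2.

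**Figure D4:**
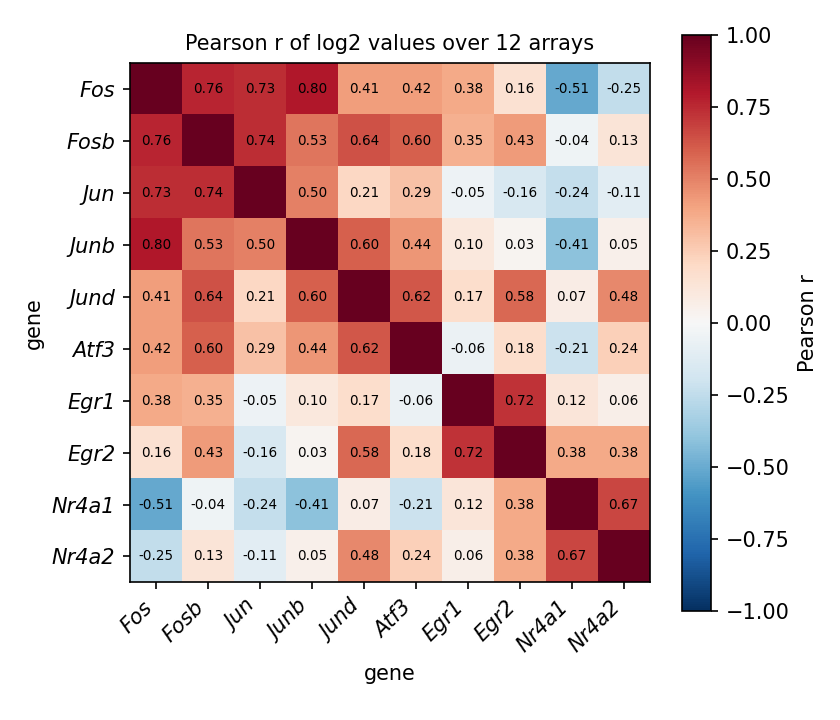
Pearson r (colour and number in each cell) between the log2 values of each pair of the 10 genes over the 12 arrays. The AP-1 genes Fos, Fosb, Jun and Junb share values of 0.50 to 0.80, Egr1 and Egr2 share 0.72, Nr4a1 and Nr4a2 share 0.67, and Fos with Nr4a1 has -0.51.

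Group membership accounted for 80.9% of the variance of Nr4a1 over the arrays, the replicate number for 15.1% and the rest for 4.01%. For Fos those shares were 38.3%, 11.8% and 49.9%, and for Egr1 21.1%, 19.9% and 59.0%. The genes whose values followed a member most closely over the 12 arrays, among all genes tested, were for Nr4a1 St3gal3 (r = 0.94), Nfe2l1 (0.93) and Gbf1 (0.93). For Fos they were Iqsec1 (r = 0.93), Dusp1 (0.92) and Samsn1 (0.91), for Jun Cd93 (0.90), Far2 (0.90) and Prox2 (0.88), and for Egr1 Ect2l (0.90), Olfr1361 (0.87) and Dnajb9 (0.84). These were picked as the highest r of all genes tested, on 12 arrays, so the values are raised by the picking and were not tested. Dusp1, itself an immediate early gene, encodes a phosphatase that switches MAP kinases off.

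Around the group of 10, relatives and feedback genes of the same pathway differed by genotype in a few cases. Of the 25 other immediate early genes listed, all 25 were measured and 0 passed in the average of both genotype comparisons, with 12 at an unadjusted p under 0.05, 7 higher and 5 lower. Over all genes 1.72% passed there and 16.1% had an unadjusted p under 0.05. With the block, which called 5.41% of all genes, 1 was higher and 3 were lower. The higher one was Nfkbia, the inhibitor of NF-kB (0.44, adjusted p = 0.0942 without the block and 0.0219 with it). The lower ones were Nr4a3, Egr3 and Plk2, a polo-like kinase gene (-0.61, adjusted p = 0.134 without the block and 0.0129 with it). The median of the 25 was 0.09, beside -0.00 for all genes.

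Among 22 feedback inhibitors of ERK and MAP kinase signalling, all 22 measured, 2 were lower in Tet2-/- cells and 0 were higher. These are calls on the average of both passages, which were made for 1.72% of all genes. Dusp6, the phosphatase that acts on ERK in the cytoplasm, read 10.99, 11.01 and 10.78 in Tet2fl/fl cells at passage 2 and 10.22, 10.47 and 10.12 in Tet2-/- cells, followed at passage 10 by 10.67, 10.79 and 11.10 against 10.60, 10.36 and 10.61. Its 6 Tet2-/- arrays lay below its 6 Tet2fl/fl arrays, with an average difference of -0.49 ± 0.09 (adjusted p = 0.0247). Dusp7, another ERK phosphatase gene, had -0.33 ± 0.07 (adjusted p = 0.0449). Over 25 alternatives each, Dusp6 stayed between -0.54 and -0.43 and passed in 17, with adjusted p up to 0.215, and Dusp7 stayed between -0.37 and -0.29 and passed in 9, with adjusted p up to 0.292. With the block Dusp4 and Spred1, a nuclear MAP kinase phosphatase gene and an inhibitor of RAS signalling, passed too (-0.78 and -0.36, adjusted p = 0.00715 and 0.0236, against 0.0944 and 0.110 without it).

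Of 18 other AP-1 and related leucine zipper genes 15 were measured, and 1 passed, lower: Batf, which pairs with JUN proteins in place of FOS. Its average genotype difference was -0.56 ± 0.11 (adjusted p = 0.0340), in a comparison that called 1.72% of all genes. It was lower in all 3 same-numbered pairs at passage 2, where the values were 8.38, 8.79 and 8.53 in Tet2fl/fl cells and 7.77, 7.82 and 7.91 in Tet2-/- cells. At passage 10 it read 8.28, 8.68 and 8.90 against 8.45, 8.09 and 8.18, and replicate 1 was the higher in Tet2-/- cells. The call failed in 11 of 25 alternatives, all of them fits without 1 array or 1 replicate number, with adjusted p up to 0.370. The block added Atf7, higher by 0.22 (adjusted p = 0.0561 without it and 0.0467 with it).

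Kinases and factors upstream of these genes, such as SRF, ELK1, CREB and the ERK kinases, were measured for 22 of 27 listed, and 0 passed for genotype. In the genotype average limma called 1.72% of all genes, and 5.41% with the block. With the block Map2k2, a kinase that activates ERK, was lower (-0.26, adjusted p = 0.0563 without it and 0.0472 with it). For passage, averaged over the genotypes, Btg2, an antiproliferative immediate early gene, was higher at passage 10 (0.76, adjusted p = 0.0228) and Myc was lower (-0.41, adjusted p = 0.0376). In Tet2-/- cells alone Btg2 rose by 0.99 ± 0.22 (adjusted p = 0.0430). Spry2, a feedback inhibitor of receptor kinases, was lower at passage 10 (-0.75, adjusted p = 0.0408). Over their 25 or 26 alternatives these 4 calls passed in 19 for Btg2 on average, 12 for Btg2 in Tet2-/- cells, 11 for Myc and 9 for Spry2, and each kept its direction. With the block, 3 of the 25 other immediate early genes were higher and 1 lower at passage 10, and 3 of the 22 feedback inhibitors were higher and 3 lower. In that average limma called 7.77% of all genes, and 13.2% with the block. Of the AP-1 relatives Mafk was higher with the block (0.31, adjusted p = 0.0751 without it and 0.0151 with it). Markers of several blood cell types moved between the same passages, as given with their values at the end, and their part in these differences and in those of Junb and Jund was not tested.

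Several genes from a joint list of mast cell and basophil markers, and from a list of eosinophil markers, differed by genotype too, in RNA of the sorted cells. Bulk RNA does not tell if such markers come from separate cells or from the same cells as the other genes. Nor can fewer cells of a type be told apart from less RNA per cell. The 12 mast cell and basophil markers, all 12 measured, had mean levels per array of 11.24 to 11.32 and 11.20 to 11.52 in Tet2fl/fl cells at passages 2 and 10, and of 10.63 to 10.82 and 10.25 to 10.77 in Tet2-/- cells. In the average of both passages 8 of the 12 were lower at an unadjusted p under 0.05, against 16.1% of all genes in either direction. Of these, 2 passed, the serotonin transporter gene Slc6a4 (-2.73, adjusted p = 0.000824) and the tryptase gene Tpsab1 (-1.43, adjusted p = 0.0124), which held in 25 and 23 of 25 alternatives. With the block 6 passed, adding Fcer1a, the IgE receptor gene (-1.58, adjusted p = 0.0505 without it and 0.0213 with it), the protease genes Cma1 (-0.77, 0.0882 and 0.0268) and Mcpt4 (-2.10, 0.100 and 0.0216), and Gata2, a transcription factor gene (-0.28, 0.145 and 0.0461). The other way, 3 of the 12 had an average difference above 0, without passing. They were Prss34 (0.41, adjusted p = 0.773), Mcpt8 (0.02, adjusted p = 0.922) and Cpa3 (0.0002, adjusted p = 0.997). Cpa3 and Mcpt8 were near the top of the scale in all groups (13.34 to 13.37 and 13.04 to 13.11). Kit, the SCF receptor gene of progenitors and mast cells, was lower as well (-0.82 ± 0.15, adjusted p = 0.0220). Over 25 alternatives its call held in 19, with adjusted p up to 0.246. With the block Flt3, a receptor gene of early progenitors, was higher in this average (0.27, adjusted p = 0.135 without it and 0.0484 with it). Its difference was 0.63 at passage 2 but -0.10 at passage 10. The 6 measured eosinophil markers of 8 had mean levels of 8.87 to 9.13 and 7.24 to 9.17 in Tet2fl/fl cells, and of 7.41 to 7.60 and 7.08 to 8.58 in Tet2-/- cells. Of these, 5 were lower at an unadjusted p under 0.05 (16.1% of all genes in either direction) and 0 passed. With the block 2 passed, the eosinophil peroxidase gene Epx (-2.22, adjusted p = 0.0501 without it and 0.0169 with it) and Il5ra, the IL-5 receptor gene (-0.97, 0.0822 and 0.0412). In this average limma called 1.72% of all genes, and 5.41% with the block.

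The 12 mature neutrophil markers had mean levels of 7.74 to 8.89 and 7.84 to 8.39 at passage 2 in Tet2fl/fl and Tet2-/- cells, and 6.66 to 8.18 and 6.83 to 7.54 at passage 10. Between the passages 1 of them passed, Ngp, a neutrophil granule gene (-1.81, adjusted p = 0.0275, held in 16 of 25 alternatives), and with the block 4 did, all lower at passage 10 (Ngp, S100a8, S100a9 and Mmp8). In the passage average limma called 7.77% of all genes, and 13.2% with the block. The erythroid and megakaryocyte markers (6 of 12 measured) had mean levels of 7.35 to 7.59 on the arrays of passage 2 and 7.61 to 8.35 on those of passage 10. All 6 differences were above 0 and 1 passed, the platelet chemokine gene Ppbp (1.75, adjusted p = 0.0140, held in 22 of 25 alternatives), joined with the block by Itga2b (0.31, adjusted p = 0.156 without it and 0.0371 with it).

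Monocyte and macrophage markers (10 of 12 measured) lay between 7.99 and 8.35 on the arrays of passage 2 and between 8.19 and 8.49 on those of passage 10, with 0 passing for passage and, with the block, 2 higher (Cd68 and Ccr2) and 1 lower (Fcgr1). The block called 13.2% of all genes in the passage average. With the block 1 marker each of the monocyte and the megakaryocyte list was higher in Tet2-/- cells, Adgre1 (0.26, adjusted p = 0.208 without it and 0.0419 with it) and Itga2b (0.35, 0.213 and 0.0416). Lymphocyte markers (7 of 12 measured) had mean levels of 6.84 to 6.88 in Tet2fl/fl and 6.64 to 6.76 in Tet2-/- cells at passage 2, and 6.61 to 6.82 and 6.61 to 6.71 at passage 10, and 0 passed for genotype. The genotype average called 1.72% of all genes, and 5.41% with the block. Of the gate and mast cell markers, the block called Ptprc (0.29, adjusted p = 0.0640 without it and 0.0181 with it) higher at passage 10, and Elane (-1.53, 0.0794 and 0.0113) and Slc6a4 (-0.65, 0.115 and 0.0395) lower. None of these lists stood at 0, since log2 array values have no true 0. The part of these cell types in the differences of Nr4a1 and its relatives was not tested.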

How the data were processed

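The 12 arrays (GeneChip Mouse Gene ST 2.0) were deposited as log2 values made by the authors with RMA in Affymetrix Power Tools, per the submitters' processing notes. Versions and the library file are not given here. No further scaling was applied, and the number of arrays limits the precision.

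Of 41345 rows, 28941 had a mean at or above the 30th percentile (log2 4.70) and were used. The probe annotation gave 23521 of all rows a single symbol, 1814 several and 16010 none. By gene ID, 23328 of the former took the current symbol of a GRCm38.p6 table, used for names only, and 193 stayed as annotated. From 17828 such rows above the limit came 16860 genes, each read from its row with the highest mean. Promoter windows are RefSeq's, of the same assembly.

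The labels define the groups. In limma 3.58.1 (R 4.3.3), 1 model with 4 group means used the 12 arrays together, with 8 residual and 3.33 prior degrees of freedom. Tests were two-sided, with Benjamini-Hochberg adjustment across all genes of a comparison and 0.05 as threshold. Values after ± are limma's SE for differences and SD for group means. To see if replicate numbers pair the samples, deviations from group means were correlated between groups: 18 pairs that share a number gave 0.201 to 0.517 and 36 pairs that do not gave -0.369 to 0.0532. The numbers were therefore taken as pairs, and a second fit with the number as a block (residual 6, prior 3.93) is given where it changes a call of the 10 genes, or of the other lists in the 2 averages.

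The 10 genes, the 12 other gene and marker lists, and the comparisons were chosen with earlier results of these data known. The rule named, from each list, the genes that passed, else those that passed with the block alone, and for likeness the 3 genes with the highest r. The limma fits, with and without the block, were tested on simulated data with independent noise for each array. That noise held no deviations shared by replicate number, so the block was not tested on such data. Other settings tried were array medians set equal, quantile scaling, the low-value filter removed or raised to the 50th percentile, limma's robust and trend options, weights per array, the replicate number as a fixed or a random block, averaging the rows of a gene, fitting the compared arrays alone, and leaving out 1 array or 1 replicate number. The other row of Jund was added after seeing the data.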

Additional observations from a re-analysis of the deposited data

Results flagged for a closer look

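Fosb was singled out because its same-numbered pairs moved in opposite directions at the 2 passages. Its 3 pairs were lower in Tet2-/- cells at passage 2, by between 0.13 and 0.72 on the log2 scale, and higher at passage 10, by between 0.22 and 0.65. The genotype difference at passage 10 minus that at passage 2 was 0.72 ± 0.37 (SE, 95% interval -0.09 to 1.53). The test of this difference did not pass (limma, unadjusted p = 0.0759, adjusted p = 0.999, and 0.961 with the replicate block). Without replicate 1 of Tet2fl/fl at passage 2 it was 0.47, and the passage 2 difference was -0.09 in place of -0.34. Of the 10 genes, Fosb was the one with this pattern. Outlying arrays were examined only through array weights and fits without 1 array.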

How the results depend on the processing

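The group of 10 gave 70 differences, of which 1 passed, Nr4a1 in the average of both genotype comparisons. With the replicate block, 1 gene (Nr4a1) passed at passage 2 and 1 (Nr4a1) at passage 10, in place of 0, and it changed no other call of the 10. With array weights 1 gene passed at passage 2 (Nr4a1, -0.75, adjusted p = 0.0445) and 2 in the average passage comparison (Junb and Jund). Fits without 1 array or 1 replicate number gave 0 to 1 passing genes in the passage comparison of Tet2-/- cells (Jund), in the genotype average (Nr4a1) and in the passage average (Jund), and 0 elsewhere.

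Signs of 13 of the 70 differences turned in another setting. They were Atf3 at passage 2 (0.0636 with array weights), Jund at passage 10 (0.00221 with quantile normalization), Egr2 at passage 10 (-0.000303 with equal medians, -0.0081 with quantile normalization), and in the genotype average Fosb (-0.0179 and -0.0142 with those 2). For passage in Tet2fl/fl cells they were Fosb (0.0128, 0.0314 and, with array weights, 0.0616) and Jun (0.0216 with quantile normalization, 0.0508 with array weights), in Tet2-/- cells Egr1 (0.0649 with array weights), and on average Egr2 (0.0118 with equal medians, 0.0617 with quantile normalization, 0.0231 with array weights) and Nr4a1 (0.0118 with quantile normalization). The other row of Jund gave -0.11 and -0.15 for passage in Tet2fl/fl and Tet2-/- cells, -0.13 on average and -0.040 for the change of the genotype effect. The causes were not tested.

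Without 1 array or 1 number, 26 differences turned sign in at least 1 fit. At passage 2 these were Fos (-0.24 to 0.44), Jund (-0.27 to 0.040), Egr1 (-0.46 to 0.21) and Atf3 (-0.092 to 0.067), and at passage 10 Jund (-0.098 to 0.032), Egr1 (-0.11 to 0.48) and Egr2 (-0.069 to 0.12). For passage in Tet2fl/fl cells they were Fos (-0.50 to 0.34), Fosb (-0.46 to 0.37), Jun (-0.38 to 0.34), Egr2 (-0.21 to 0.020) and Atf3 (-0.027 to 0.15), and in Tet2-/- cells Egr1 (-0.47 to 0.20), Egr2 (-0.026 to 0.25) and Nr4a1 (-0.059 to 0.092). For the change of the genotype effect they were Junb (-0.075 to 0.17), Jund (-0.11 to 0.25), Egr1 (-0.19 to 0.76) and Nr4a2 (-0.042 to 0.23). In the genotype average they were Fosb (-0.10 to 0.15), Jun (-0.10 to 0.26), Jund (-0.15 to 0.0076) and Egr1 (-0.11 to 0.18), and in the passage average Fos (-0.14 to 0.69), Fosb (-0.016 to 0.66) and Egr2 (-0.11 to 0.063).

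Counts over all genes moved widely. They lay between 0 and 69 at passage 2 (1 in the fit described), 3 and 221 at passage 10 (38), 14 and 912 for the genotype average (290), 0 and 1728 for passage in Tet2-/- cells (503), 0 and 2223 for the passage average (1310), 0 and 7 for passage in Tet2fl/fl cells (0), and 0 and 1 for the change of the genotype effect (0). Single arrays decided several calls outside the group of 10. Dusp6 lost its call without replicates 1 or 2 of Tet2fl/fl at passage 2, replicate 1 of Tet2-/- at passage 2, or replicates 2 or 3 of Tet2-/- at passage 10 (adjusted p up to 0.0772). Kit lost it without replicate 3 of Tet2fl/fl or replicates 1 or 2 of Tet2-/- at passage 2, or replicate 2 of Tet2-/- at passage 10 (adjusted p up to 0.0553). Dusp7 kept it in 1 of the 12 fits without 1 array, Myc and Spry2 in 2, Batf in 3 and Ngp in 6. The number of arrays, 3 in each group, limits what could pass.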

Other observations

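Heat shock chaperones, which often move with immediate early genes when cells are handled, were listed together with the stress gene Hmox1. Of these 15 genes 11 were measured, and 0 passed by genotype in the average of both passages (limma). In that average 1.72% of all genes were called, and 5.41% with the replicate block. At an unadjusted p under 0.05 there were 2, 1 higher and 1 lower, against 16.1% of all genes. With the replicate block Hmox1, the haem oxygenase gene of the oxidative stress response, was higher (0.35, adjusted p = 0.265 without the block and 0.0446 with it). Between the passages Hsp90aa1, a cytosolic chaperone gene, was lower at passage 10, by 0.26 on average (adjusted p = 0.0258) and by 0.35 in Tet2-/- cells (adjusted p = 0.0464), calls that were kept in 16 of 25 and 8 of 26 alternatives. With the block Hspd1, a mitochondrial chaperone gene, was lower on average as well (-0.28, adjusted p = 0.0573 without it and 0.0471 with it) and Hmox1 higher (0.50, 0.0606 and 0.00736). For passage, limma called 7.77% of all genes on average, 13.2% with the block, and 2.98% in Tet2-/- cells. The mean level of the 11 genes per array, Hmox1 included, lay between 8.16 and 8.42 on all 12 arrays.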
